A study of Homo sapiens with 3 samples.

Results

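The transcripts of 9 genes of the plasminogen activator system and of the serpin inhibitors around it were followed: the activators PLAU and PLAT, the urokinase receptor PLAUR, and the serpins SERPINE2, SERPINB1, SERPINB2, SERPINB5, SERPINB6 and SERPINB8. They were picked by gene symbol, and all 9 had a row among the 31907 rows of the deposited table. The symbols were listed with TPM values of these same libraries in view, so the values of the 9 genes are given as description and carry no test. Expression was measured in 3 libraries of poly(A) RNA from the human gastric cancer line NCI-N87, an established cell line. All 3 cultures were transfected with Lipofectamine 2000. One received a scrambled siRNA (genotype WT in the labels) and is called the control below, and the others received siRNA1 or siRNA2, different siRNAs labelled as knockdown of the forkhead transcription factor FOXP4. The time after transfection and the siRNA dose are not stated in the labels. The control has no replicate, each knockdown library is 1 reagent, and nothing in the labels says that the cultures were grown separately.

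Plasminogen is a circulating zymogen that urokinase (PLAU) and tissue-type activator (PLAT) cut into plasmin, a broad protease of fibrin and matrix. The receptor PLAUR holds urokinase at the cell surface, and the serpin PAI-2 (SERPINB2) can block both activators. Serpins act as suicide substrates: the protease cuts an exposed loop of the serpin and is trapped on it. Clade B serpins mostly lack a classical signal peptide and work inside cells, and their human genes lie in a cluster at 6p25 and another at 18q21. In epithelial tumours the urokinase system is best known for its role in invasion.

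SERPINB2, SERPINB8 and PLAUR had the largest siRNA2 differences from the scrambled library among the 9 genes on the log2(TPM + 1) scale, and the sequence before each start site held a motif of the AP-1 type. The 250 bases before the RefSeq start are shown for these genes and for SERPINB5, which held the motif too but had smaller folds. Letters run from 5′ to 3′ on the gene's strand of GRCh38.p14, and capitals mark TGANTCA, searched on both strands, on which it reads the same.
SERPINB2, chr18:63887455-63887704, plus strand: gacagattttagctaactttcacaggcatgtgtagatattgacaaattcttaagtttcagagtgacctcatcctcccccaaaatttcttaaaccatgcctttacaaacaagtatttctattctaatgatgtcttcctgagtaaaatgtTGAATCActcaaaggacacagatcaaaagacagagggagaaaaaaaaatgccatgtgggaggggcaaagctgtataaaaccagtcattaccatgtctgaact
SERPINB8, chr18:63969831-63970080, plus strand: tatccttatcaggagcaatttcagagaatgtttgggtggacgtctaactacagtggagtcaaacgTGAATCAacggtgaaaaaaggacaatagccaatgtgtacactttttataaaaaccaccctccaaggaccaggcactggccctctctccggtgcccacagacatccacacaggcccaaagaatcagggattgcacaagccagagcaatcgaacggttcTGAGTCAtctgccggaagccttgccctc
PLAUR, chr19:43670170-43670419, minus strand: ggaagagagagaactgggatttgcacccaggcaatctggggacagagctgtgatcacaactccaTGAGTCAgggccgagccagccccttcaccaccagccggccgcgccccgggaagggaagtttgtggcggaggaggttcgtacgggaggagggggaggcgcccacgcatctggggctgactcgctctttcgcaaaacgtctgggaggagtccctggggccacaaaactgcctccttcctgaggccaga
SERPINB5, chr18:63476708-63476957, plus strand: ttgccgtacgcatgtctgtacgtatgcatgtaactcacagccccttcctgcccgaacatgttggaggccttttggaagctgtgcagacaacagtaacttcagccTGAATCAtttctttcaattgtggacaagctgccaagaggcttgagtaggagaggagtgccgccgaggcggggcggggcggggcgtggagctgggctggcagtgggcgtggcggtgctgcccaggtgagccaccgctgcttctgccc
In SERPINB2 the match TGAATCA lay 102 to 96 bases before the start. SERPINB8 held TGAATCA at 185 to 179 bases and TGAGTCA at 28 to 22 bases before the start. PLAUR held TGAGTCA at 186 to 180 bases, and SERPINB5 held TGAATCA at 146 to 140 bases. Of the 8 genes with a RefSeq start window, 4 held TGANTCA, and PLAU, SERPINE2, SERPINB1 and SERPINB6 did not hold it in any of their windows. Across all genes with such windows 8.06% held it in at least 1 window, and 6.57% of all 35116 windows did. The related motif TGACGTCA was in no window of the 8 genes and in 1.65% of all windows. The 9 genes were listed with values of these libraries in view, so nothing is read from their share beside that of all genes. A match describes letters only, and binding was not measured. Whether the motif bears on the differences was not tested.

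FOXP4 measured 93.9 TPM in the control, 51.6 TPM under siRNA1 and 36.7 TPM under siRNA2, which left 54.97% and 39.0% of the control value. TPM is a share of reads corrected for length. Low values stepped by whole reads when that length was taken as all exons of a gene. All exons together can be longer than the transcript made, so comparisons of levels between genes are approximate. Reads estimated from the steps between low values summed to between 17928600 and 18692100 per library. That sum covers only the 22180 of 31907 rows matched to an exon length, so it is not the whole depth. The 13 mitochondrially encoded mRNAs took 5.15% of TPM in the control, 8.05% under siRNA1 and 1.41% under siRNA2, which sets the siRNA2 library apart. All 7 simple epithelial markers were detected (summed 4718, 3542 and 5666 TPM), although CDH1, which encodes E-cadherin, was low at 4.16, 5.86 and 11.6 TPM. Fibroblast markers came to 13.9, 7.06 and 22.7 TPM, nearly all from COL1A1, with DCN and LUM at 0. PTPRC, the pan-leukocyte marker, stayed under 0.06 TPM. Squamous markers summed to 2.96, 1.52 and 1.11 TPM over 7 genes, with KRT5 and IVL at 0.

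SERPINB2, which encodes PAI-2, differed most between the libraries. The gene (ENSG00000197632.8, chromosome 18, 63871692 to 63903890, plus strand, GRCh38) measured 0.696 TPM in the control, 6.79 TPM under siRNA1 and 108 TPM under siRNA2. Both knockdown libraries lay above the control, and siRNA2 lay far above siRNA1. The control value rests on about 9 estimated reads, against 84 and 1365 in the siRNA1 and siRNA2 libraries. The TPM ratio to the control was 9.76 with siRNA1, and exact limits from the reads were 4.85 to 21.8 (95%, counting error only). With siRNA2 the ratio was 155, with limits of 81.0 to 338. On the log2(TPM + 1) scale, which understates folds of low genes, the differences were 2.20 and 6.01, averaging 4.10 ± 2.69 (SD, n = 2). The siRNA2 value was 15.9 times the siRNA1 value. SERPINB2 passed the filter of a mean of 1 TPM only through the knockdown libraries. In bulk RNA, more cells expressing a gene and more transcript per cell cannot be told apart.

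SERPINB8, an intracellular serpin known to inhibit furin, was the other gene well above the control with both siRNAs. It (ENSG00000166401.14, chromosome 18, 63969925 to 64019779, plus strand) measured 4.34 TPM in the control, 16.2 TPM under siRNA1 and 38.4 TPM under siRNA2. These values stood on about 119, 429 and 1035 estimated reads. The log2 differences were 1.69 and 2.88, averaging 2.29 ± 0.84 (SD, n = 2), and the siRNA2 value was 2.37 times that of siRNA1. SERPINB2 and SERPINB8 thus shared the order of the libraries, scrambled lowest and siRNA2 highest. That order was not particular to them. PLAUR (22.9, 29.2 and 92.1 TPM) had it, as did PLAU on few reads (0.0720, 0.223 and 0.732 TPM). PLAT, SERPINE2, SERPINB1, SERPINB5 and SERPINB6 did not. Outside the followed genes, KDSR (23.4, 32.2 and 38.4 TPM) had it too.

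PLAUR, the glycolipid-anchored urokinase receptor, was high mainly in 1 library. The gene (ENSG00000011422.11, chromosome 19, 43646095 to 43670547, minus strand) measured 22.9 TPM in the control, 29.2 TPM under siRNA1 and 92.1 TPM under siRNA2. The siRNA1 library was 1.27 times the control and the siRNA2 library 4.02 times. The log2 differences were 0.34 and 1.96, averaging 1.15 ± 1.15 (SD, n = 2), so the spread between the siRNAs was as large as the mean. With a lowess trend of the differences on GC content taken out, the differences were 0.63 and 2.27.

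**Figure D1:**
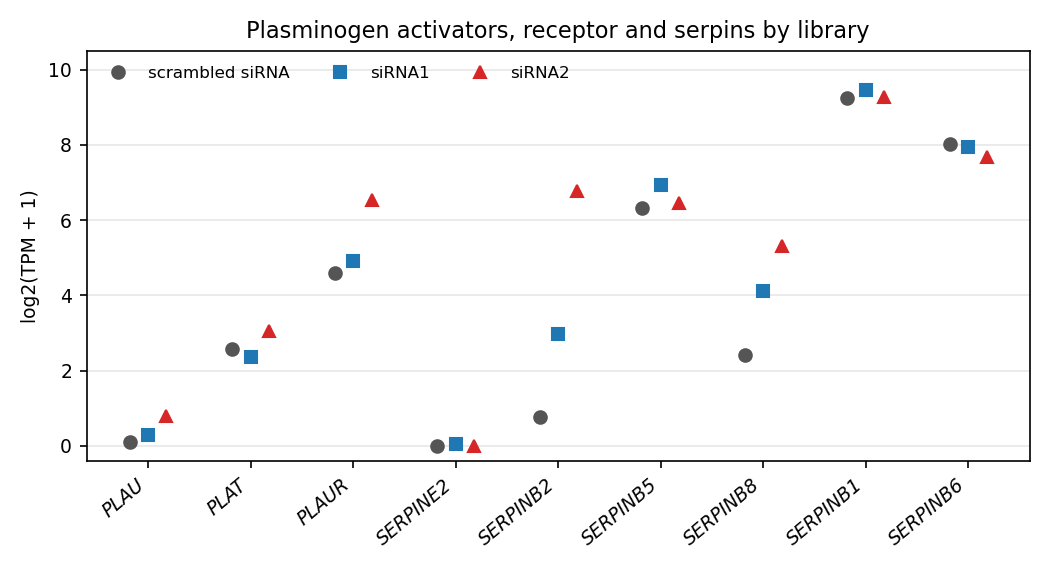
Level of each of the 9 genes as log2(TPM + 1), with 1 point per library: scrambled siRNA (circle), siRNA1 (square) and siRNA2 (triangle). SERPINB2 goes from 0.696 to 6.79 and 108 TPM and SERPINB8 from 4.34 to 16.2 and 38.4 TPM, while SERPINB1 and SERPINB6 sit near the top in every library.

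The ligand of that receptor was nearly silent. PLAU (ENSG00000122861.15, chromosome 10, 73909177 to 73917497, plus strand) measured 0.0720 TPM in the control, 0.223 TPM under siRNA1 and 0.732 TPM under siRNA2. Those values are about 1, 3 and 10 estimated reads. The siRNA1 ratio to the control was 3.10 with exact limits of 0.249 to 163, and the siRNA2 ratio was 10.2 with limits of 1.45 to 441, both 95% limits of counting error. A difference with siRNA1 was therefore not detectable at this depth. C10orf55 overlaps PLAU on the opposite strand and was listed at 0 in all 3 libraries, and no source used here says whether counting used strand, so reads of the pair cannot be told apart.

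PLAT, the tissue-type activator, was the more abundant activator and differed little. It (ENSG00000104368.17, chromosome 8, 42175233 to 42207724, minus strand) measured 4.98 TPM in the control, 4.11 TPM under siRNA1 and 7.34 TPM under siRNA2. The siRNAs lay on opposite sides of the control, with log2 differences of -0.22 and 0.48, averaging 0.13 ± 0.50 (SD, n = 2). PLAU and PLAT summed to 5.05, 4.34 and 8.07 TPM, nearly all of it PLAT. The inhibitor transcript SERPINB2 was 0.138, 1.57 and 13.4 times that sum in the control, siRNA1 and siRNA2 libraries. These ratios between genes depend on the lengths used (6618 exon bases for PLAT), and the control value of SERPINB2 rests on about 9 reads. They compare transcripts only and give no balance of inhibitor and activator proteins.

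SERPINE2, which encodes protease nexin-1, an inhibitor of thrombin and urokinase, was not measurable. It (ENSG00000135919.12, chromosome 2, 223975112 to 224039319, minus strand) was listed at 0 with the scrambled siRNA and with siRNA2, and at 0.0247 TPM, about 1 estimated read, with siRNA1. A count of 0 allows up to 3 reads, or 0.0722 TPM with the scrambled siRNA and 0.0734 TPM with siRNA2. PLAU and SERPINE2 both missed the filter of a mean of 1 TPM, which left 7 of the 9 genes among the 14429 tested.

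SERPINB1 and SERPINB6 were the most abundant of the 9 genes and lay close to the control. SERPINB1, an inhibitor of neutrophil elastase and cathepsin G (ENSG00000021355.12, chromosome 6, 2832332 to 2842006, minus strand), measured 606 TPM in the control, 700 TPM under siRNA1 and 620 TPM under siRNA2. SERPINB6, another intracellular inhibitor of trypsin-like proteases (ENSG00000124570.19, chromosome 6, 2948159 to 2972165, minus strand), measured 260, 247 and 204 TPM in the same order. SERPINB1 was 1.15 and 1.02 times the control with siRNA1 and siRNA2. The log2 difference of SERPINB6 was -0.07 with siRNA1 and -0.35 with siRNA2, where the median of all genes tested was 0.03 and -0.24. With mitochondrially encoded genes left out, the siRNA2 difference of SERPINB1 turned from 0.03 to -0.03, and with quantile normalization to -0.12.

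SERPINB5, which encodes maspin, a serpin without protease inhibition that is known as a product of normal epithelium, had its highest value with siRNA1. It (ENSG00000206075.13, chromosome 18, 63476761 to 63505085, plus strand) measured 79.5 TPM in the control, 122 TPM under siRNA1 and 87.3 TPM under siRNA2. The log2 differences were 0.61 and 0.13, averaging 0.37 ± 0.34 (SD, n = 2). After the same GC correction they were 0.26 and 0.30, so the gap between the siRNAs was smaller on that scale.

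The order of the 9 levels differed between the libraries through SERPINB2, SERPINB8, SERPINB5, PLAUR and PLAT. SERPINB1 was number 1, SERPINB6 number 2 and PLAUR number 4 in all 3 libraries. The order depends on the lengths used. SERPINB6 had about 16032 estimated control reads over 13201 exon bases, and SERPINB1 about 8764 over 3094. SERPINB2 was number 7 in the control, number 6 under siRNA1 and number 3 under siRNA2. SERPINB8 was below PLAT in the control and above it with both siRNAs, and PLAUR was above SERPINB5 with siRNA2 only. In the siRNA2 library SERPINB2 (108 TPM), PLAUR (92.1 TPM) and SERPINB5 (87.3 TPM) were neighbours in this order, and with 1 library no spread can separate them. SERPINB2 made up 0.0732% of summed clade B serpin TPM in the control, 0.622% under siRNA1 and 10.2% under siRNA2. The summed level itself was 951, 1091 and 1058 TPM.

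By size, 2 of the 7 tested genes, SERPINB2 and SERPINB8, were at least 2-fold above the scrambled library with both siRNAs, where 2.52% of the 14429 genes tested were. None was at least 2-fold lower with both, where 2.38% of genes tested were. Taken singly, siRNA1 put SERPINB2 and SERPINB8 past 2-fold (5.27% of genes tested were higher with it), and siRNA2 put PLAUR, SERPINB2 and SERPINB8 there (6.88%). The same 3 genes were at least 2-fold higher with siRNA2 than with siRNA1, as were 5.99% of genes tested. Nothing is read from these shares, since the genes were listed from the same contrasts. SERPINB2 and SERPINB8 met the rule in each of the 9 other settings of pseudocount, scaling, filter, gene type and GC content. Filter and gene type leave a gene's own differences unchanged, so only pseudocount, scaling and GC content could have altered this. With a pseudocount of 5 TPM the siRNA1 differences came close to the limit of 1. The log2 differences were then 1.05 and 4.31 for SERPINB2, and 1.18 and 2.22 for SERPINB8. With mitochondrially encoded genes left out the log2 differences were 2.30 and 5.996 for SERPINB2, and 1.76 and 2.83 for SERPINB8. After the GC correction they were 1.83 and 6.17 for SERPINB2, and 1.37 and 3.07 for SERPINB8.

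**Figure D2:**
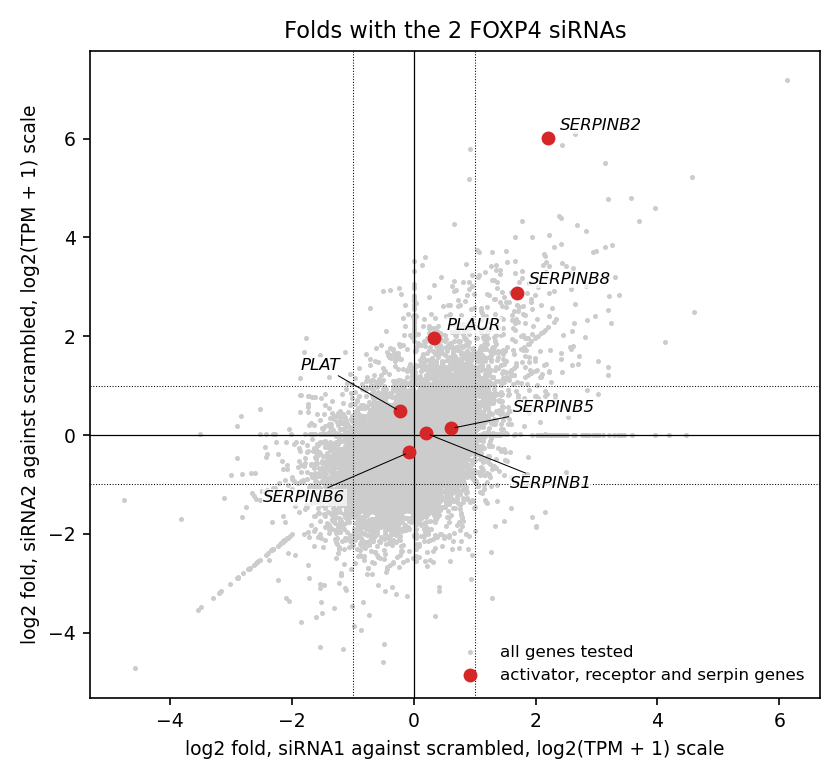
Log2 difference from the scrambled library on the log2(TPM + 1) scale with siRNA1 (horizontal) and siRNA2 (vertical); grey points are the 14429 genes tested, red points the 7 of the 9 genes among them, and dotted lines mark 2-fold. Both axes share the scrambled library; SERPINB2 (2.20 and 6.01) and SERPINB8 (1.69 and 2.88) lie beyond 2-fold on both.

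At the 18q21 cluster values differed between neighbouring serpins. SERPINB5 lies at its proximal end, and SERPINB2 and SERPINB8 lie toward the other end with 66034 bases between them. SERPINB12, SERPINB4, SERPINB3, SERPINB7 and SERPINB10, all between SERPINB5 and SERPINB8, were listed at 0 in every library. For SERPINB10, which overlaps SERPINB2 on the same strand, 3 reads would have been 0.238 TPM in the scrambled library and 0.242 TPM in the siRNA2 library. HMSD, which overlaps SERPINB8 on the same strand, was also listed at 0. The flanking genes KDSR, an enzyme of sphingolipid synthesis, and VPS4B, an ESCRT ATPase, measured 23.4, 32.2 and 38.4 TPM and 45.2, 62.0 and 57.5 TPM in the scrambled, siRNA1 and siRNA2 libraries.

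At 6p25 the abundant serpins had similar values in all 3 libraries. SERPINB9, the granzyme B inhibitor that lies between SERPINB1 and SERPINB6, was listed at 0 with the scrambled siRNA and siRNA1 and at 0.0524 TPM with siRNA2. WRNIP1, NQO2 and RIPK1 next to them measured 120, 102 and 82.9 TPM, 44.8, 59.5 and 59.5 TPM, and 66.2, 77.9 and 58.7 TPM. Of 8 further clade B serpins in the list, 6 had a row, 5 of those were at 0 in every library, and none reached a mean of 1 TPM.

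**Figure D3:**
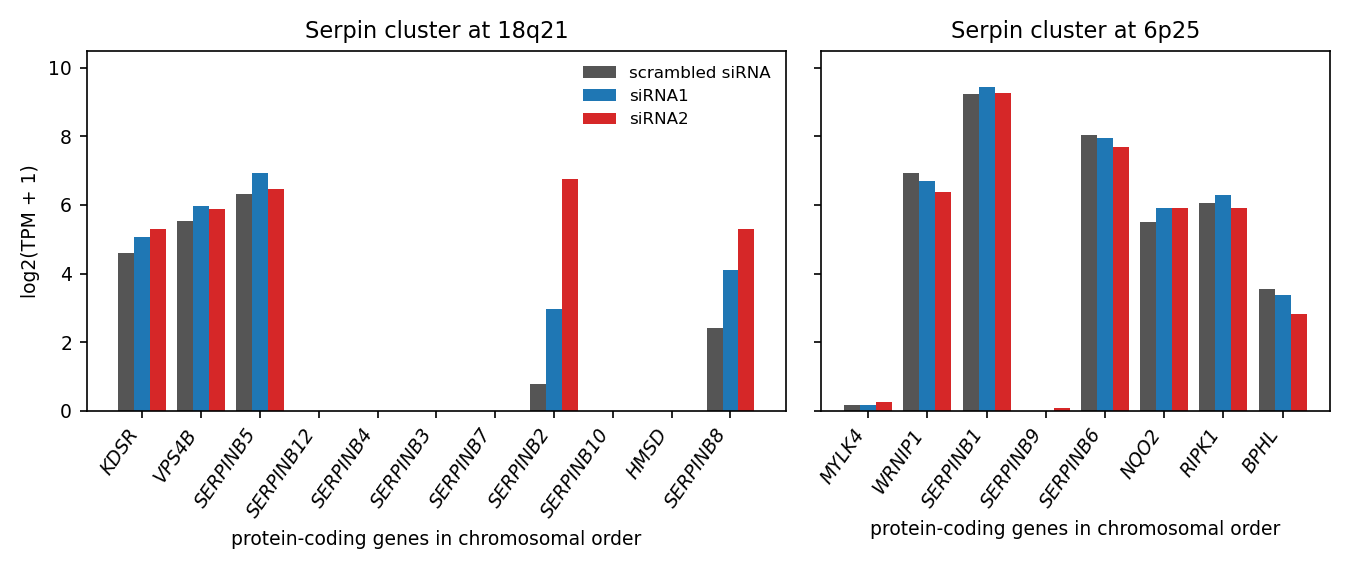
Level as log2(TPM + 1) of the protein-coding genes in and next to the serpin clusters at 18q21 (left) and 6p25 (right), in chromosomal order, with 1 bar per library. Bars of SERPINB2 and SERPINB8 differ between libraries at 18q21, the 5 other serpins plotted between SERPINB5 and SERPINB8 are at 0, and SERPINB1 and SERPINB6 are level at 6p25.

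Beyond the 9 genes, tests used limma over all 14429 genes, with the spread between the siRNAs as the only residual degree of freedom. Limma called 0 genes (0% of those tested) at an adjusted p under 0.05 in either direction, and 428 had an unadjusted p under 0.05. With the filter raised to 10 TPM, a fit in which all genes share 1 variance trend (infinite prior degrees of freedom), it called 84 of 9129 genes as higher (0.92%) and 9 as lower (0.0986%).

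Among 20 serpins of other clades, 14 had a row and 5 reached a mean of 1 TPM. Of these 5, 2 were at least 2-fold higher with both siRNAs (2.52% of all genes tested were), 0 were 2-fold lower with both (2.38%), and 0 passed limma over all genes. They were SERPIND1, the thrombin inhibitor heparin cofactor II (0.416, 2.58 and 4.31 TPM), and SERPINI1, neuroserpin, an inhibitor of PLAT (1.49, 4.27 and 4.19 TPM). SERPIND1, like SERPINB2, passed the filter of a mean of 1 TPM only through the knockdown libraries. This list was chosen with earlier results of these data known, so nothing is read from the share of 2 in 5. The SERPIND1 control value rests on about 5 estimated reads, and the gene lies inside PI4KA on the opposite strand, which measured 43.6, 43.0 and 46.8 TPM. After the same GC correction the siRNA1 difference of SERPINI1 was 0.68 in place of 1.08. With a pseudocount of 5 TPM the mean log2 difference was 0.63 in place of 1.62 for SERPIND1 and 0.51 in place of 1.07 for SERPINI1, so neither was then 2-fold higher with both. SERPING1, the C1 inhibitor, measured 2.18, 1.95 and 5.57 TPM, and SERPINH1, the collagen chaperone HSP47, measured 449, 267 and 509 TPM. The mean difference of SERPINH1 was -0.28, and 0.03 after the GC correction. The medians of the 5 were 0.19 with siRNA1 and 1.05 with siRNA2.

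Transcripts for plasminogen and the proteins that hold it differed in their order across the libraries. PLG was listed at 0 in all 3 libraries. ANXA2 and S100A10 encode the subunits of the annexin A2 heterotetramer, a surface receptor of plasminogen and PLAT. ANXA2 measured 729, 1030 and 1719 TPM, and S100A10 measured 3886, 2622 and 1772 TPM, so their values ran in opposite order across the libraries. PLGRKT, a transmembrane plasminogen receptor, measured 34.3 TPM in the control, 35.1 TPM under siRNA1 and 5.49 TPM under siRNA2. ENO1, the glycolytic enolase that can bind plasminogen at the surface, measured 1554, 1229 and 686 TPM. Of 5 genes of this list tested, 0 passed limma (smallest adjusted p = 0.9999) and 0 were 2-fold away with both siRNAs. Their medians were -0.34 and -1.13, beside 0.03 and -0.24 for all genes tested. Across all 14429 genes tested limma called 0%, while 2.52% were 2-fold higher and 2.38% 2-fold lower with both siRNAs. The counts of 0 are therefore not read as a result about this list.

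Partners of the urokinase receptor differed in the direction of their values. Vitronectin, encoded by VTN, is the matrix ligand of PLAUR and measured 276, 157 and 145 TPM. The integrin chains ITGA5 (51.4, 66.0 and 118 TPM), ITGAV (70.55, 80.7 and 138 TPM) and ITGB1 (384, 511 and 616 TPM) were lowest in the scrambled library and highest with siRNA2. ITGA3, another integrin chain, had log2 differences of -0.06 and 0.70, and CAV1, which encodes caveolin-1, of -0.06 and -0.69. After the same GC correction the siRNA1 difference of ITGAV was -0.28 and that of ITGB1 0.00. Of 7 genes tested, 0 passed limma and 0 were 2-fold away with both siRNAs, with medians of -0.06 and 0.70. Of all genes tested 0% passed, 2.52% were 2-fold higher and 2.38% lower with both, and medians were 0.03 and -0.24. Nothing is read from the counts of 0 in so short a list.

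Uptake receptors clear complexes of activator and inhibitor from the surface. LRP1, the main one, was level at 12.01, 12.7 and 13.4 TPM, and VLDLR was listed at 0. IGF2R, which binds PLAUR and plasminogen, measured 62.2, 79.6 and 135 TPM, and the reelin receptor LRP8 measured 56.6, 37.4 and 33.97 TPM. LRPAP1, the chaperone of these receptors, measured 170, 94.3 and 158 TPM, and the sorting receptor SORL1 measured 26.7, 19.6 and 27.2 TPM. Of 5 genes tested, 0 passed limma and 0 were 2-fold away with both, with medians of -0.43 and 0.03. Of all genes tested 0% passed, 2.52% were 2-fold higher and 2.38% lower with both, and medians were 0.03 and -0.24. Here too nothing is read from the counts of 0.

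Other epithelial proteases held 1 large siRNA2 value. PRSS22, an epithelial tryptase that can activate pro-urokinase, measured 90.5, 101 and 466 TPM. KLK10 (15.6, 7.75 and 9.52 TPM), PRSS23 (58.2, 37.3 and 37.9 TPM) and KLK7 (3.14, 2.62 and 1.15 TPM) were lower in value with both siRNAs. Of 13 serine proteases and Kunitz inhibitors tested, 0 passed limma, 0 were 2-fold higher and 0 were 2-fold lower with both, with medians of -0.20 and -0.07. Among 9 cathepsins and cystatins tested 0 passed, and medians were -0.43 and -0.24. Of all genes tested 0% passed, 2.52% were 2-fold higher and 2.38% lower with both siRNAs, and medians were 0.03 and -0.24. The siRNA2 median of the cathepsins and cystatins was thus that of all genes, and nothing is read from the counts of 0. Cystatin A (CSTA, 3.09, 0.480 and 1.26 TPM), cathepsin V (CTSV, 53.7, 28.1 and 30.5 TPM), cystatin C (CST3, 591, 318 and 418 TPM) and cathepsin D (CTSD, 285, 175 and 246 TPM) had the largest mean differences in that list. The mean log2 difference of CTSD turned from -0.45 to 0.07 after the GC correction.

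**Figure D4:**
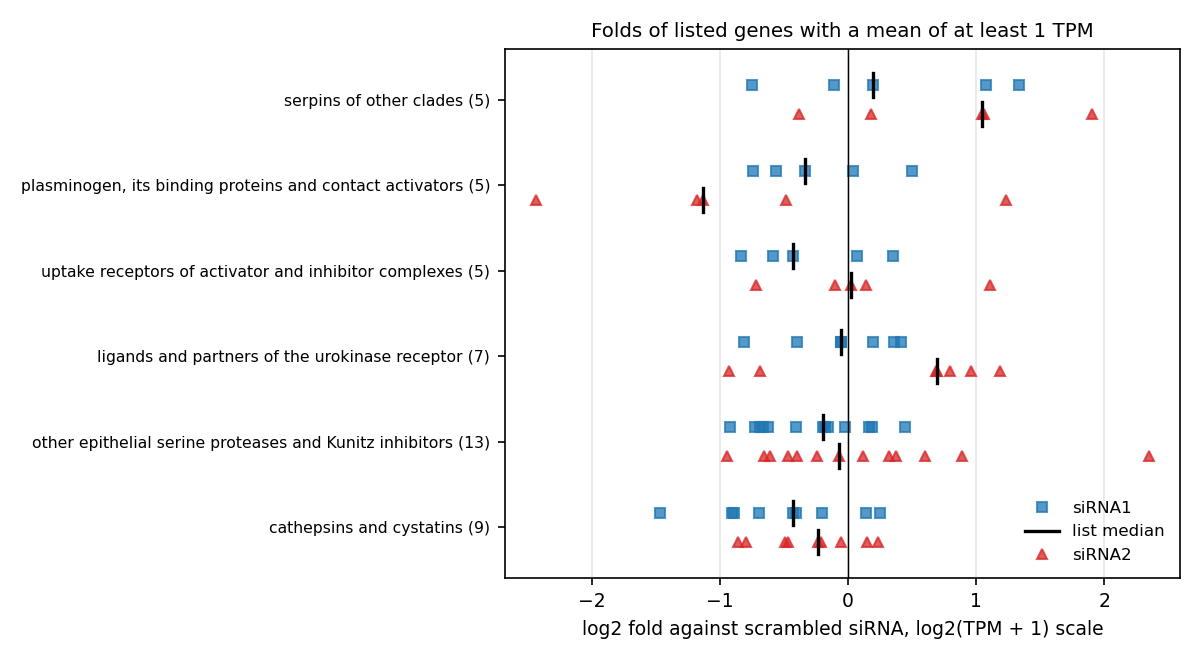
Log2 difference from the scrambled library on the log2(TPM + 1) scale for listed genes averaging 1 TPM or more, by list, with the number of genes in brackets; squares are siRNA1, triangles siRNA2 and black ticks list medians. SERPIND1 at 1.34 and 1.91 is the highest point of each siRNA among serpins of other clades, and PLGRKT at -2.44 is the lowest siRNA2 point among plasminogen-binding genes.

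The genes nearest to SERPINB2, PLAUR and PLAU in their pair of differences were sought among 9123 genes averaging 10 TPM or more, over 2 differences that share the scrambled library. Nearest to SERPINB2 were DUSP1, a phosphatase of stress kinases (13.3, 76.1 and 836 TPM, distance 0.27), HKDC1, a hexokinase (2.59, 21.4 and 243 TPM, distance 0.45), and the metalloproteinase MMP10 (3.99, 40.6 and 384 TPM, distance 0.90). Nearest to PLAUR were the semaphorin and VEGF co-receptor NRP1 (19.9, 26.0 and 76.3 TPM), IFFO2 (15.8, 19.4 and 61.8 TPM) and SMOX, spermine oxidase (74.3, 92.9 and 312 TPM). For PLAU, whose differences rest on 10 reads or fewer, they were MYHAS, CMIP and TFE3. With 2 differences per gene this is a description of values only.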

How the data were processed

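RNA was measured in 3 poly(A) libraries of NCI-N87 cells, 1 with a scrambled siRNA and 2 with different FOXP4 siRNAs. The authors deposited 1 table of TPM with gene symbols, and per the submitters' processing notes the build was GRCh38. The quantifier is not given in the sources used here, nor is the gene annotation. Columns summed to 998273, 998717 and 998406 TPM, and depth is not stated.

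Positions, exon lengths and GC content came from GENCODE 29, matched by symbol for 22180 rows. Reads were estimated from TPM times exon length, which stepped by a fixed amount: 92.8%, 92.6% and 93.0% of low values lay within 0.1 of a whole read in the scrambled, siRNA1 and siRNA2 libraries. Intervals and floors of 3 reads cover counting error only and assume those lengths. Start windows came from the RefSeq table of GRCh38.p14, and 8 of the 9 genes had one.

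Values were compared as log2(TPM + 1) for the 14429 genes whose mean reached 1 TPM. The test was limma (version 3.58.1, R 4.3.3), with its variance trend on intensity and Benjamini-Hochberg adjustment over all genes, threshold 0.05. Simulated data served to check the code of limma's fit, with recovery required only at a spread below that seen here. That check does not show what limma can detect in these 3 libraries. The lone control is assumed to vary like the siRNA libraries, so p-values reflect nothing but how far these libraries spread, which may be technical. A rule of size stood beside it: a log2 difference of at least 1 with both siRNAs. The 9 genes and all lists were chosen with earlier results of these data known. Genes named from each list were up to 4 with the largest mean difference, with all 9 genes and the 3 nearest in pattern. Other genes named with values stand for context: FOXP4, flanking and overlapping genes, other clade B serpins, markers, LRP1, VLDLR, PLG, ITGA3 and CAV1. A further gene considered for the lists is not reported here. Other pseudocounts, scalings, filters, gene types, a GC correction and each siRNA alone were tried.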

Additional observations from a re-analysis of the deposited data

How the results depend on the processing

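With 1 scrambled library the control cannot be left out, and depth limits PLAU, SERPINE2 and the control value of SERPINB2. Limma called 0 genes with pseudocounts of 0.1 and 5 TPM, quantile normalization, the GC trend removed and no filter, but 1 with median-of-ratios rescaling, 9 with mitochondrially encoded genes left out, 93 at a mean of at least 10 TPM and 92 with protein-coding genes only, and in the last 2 settings all genes shared 1 variance trend. Genes at least 2-fold higher with both siRNAs numbered 363 of 14429, and 158 of 14429 with a pseudocount of 5 TPM. They numbered 204 of 9129 at a mean of at least 10 TPM and 211 of 10847 with protein-coding genes only. Those at least 2-fold lower numbered 343 of 14429, and 521 and 121 of 14429 with pseudocounts of 0.1 and 5 TPM. They numbered 117 of 12302 with the GC trend removed and 583 of 24224 with no filter. At a mean of at least 10 TPM they were 143 of 9129, and with protein-coding genes only 177 of 10847. Counts from sets of different size are not compared directly, since part of the gap is the number of genes tested. With 1 siRNA left out, a value with no test, the higher genes ranged from 760 to 993 and the lower from 866 to 1902. Median-of-ratios rescaling moved the siRNA2 median of all genes from -0.24 to -0.07. Over these alternatives the mean log2 difference lay between 2.20 and 6.01 for SERPINB2 when siRNA1 or siRNA2 stood alone, between 1.69 and 2.88 for SERPINB8 and between 0.34 and 1.96 for PLAUR, while PLAT ran from -0.22 to 0.48. Mean differences were recomputed with other pseudocounts, scalings or the GC correction for followed genes and genes with the largest differences in each list. PLAU and SERPINE2, which missed the filter, are not covered. Of these recomputed values, 165 stayed within 1 SD of the siRNAs and 21 did not. That SD is the spread between the siRNAs, so it is a loose limit where they differ. SERPINB2 (SD 2.69) went from 4.10 to 2.68 with a pseudocount of 5 TPM and stayed within it. SERPINI1 (SD 0.014) fell outside it in every such setting. A turn of sign was counted only for genes 2-fold away with both siRNAs, and 0 were found. The size of those differences left little room for a turn, so that 0 is not read as support. Outside that count, the GC correction turned the mean difference of CTSD from -0.45 to 0.07 and of SERPINH1 from -0.28 to 0.03. No paired analysis was possible because the scrambled siRNA has 1 library and the siRNA numbers name reagents.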
